A study of Mus musculus with 36 samples.

Results

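The genes described here belong to the BMP and activin branches of TGF-β superfamily signalling: the ligand genes Bmp2, Bmp4 and Inhba, the secreted antagonist Grem1, the inhibitory SMADs Smad6 and Smad7, and the ID genes Id1, Id2, Id3 and Id4. They were taken by gene name from the count and TPM tables, where all 10 were found among the 53421 genes of the count table. On GRCm38 the ligand genes lie at chr2:133552159-133562885 (Bmp2, plus strand), chr14:46383520-46390669 (Bmp4, minus strand) and chr13:16011851-16031621 (Inhba, plus strand), and Grem1 at chr2:113746164-113758646 (minus strand). Smad6 lies at chr9:63953076-64022059 (minus strand), Id1 at chr2:152736251-152737410 (plus strand), Id2 at chr12:25093799-25097140 (minus strand), Id3 at chr4:136143497-136145755 (plus strand) and Id4 at chr13:48261228-48266026 (plus strand), and Smad7 on chromosome 18. Values are gene totals over the annotated exons. The libraries came from a conditionally immortalised wild-type mouse line of fibroblast-like chondrocytes, transfected with siRNA before confluence. The line was taken off its permissive temperature of 33 °C and IFN-γ before the experiment. The study asked how depletion of IFT88, a protein of the intraflagellar transport machinery of the primary cilium, bears on the transcriptional response to the inflammatory cytokine IL-1β. The 36 poly(A) RNA-seq libraries covered 12 conditions with 3 replicates each: a non-targeting siRNA pool (NT) or a pool of 4 siRNAs against Ift88 (IFT88siRNA), each collected without IL-1β (0 h) or at 5 times from 1 h to 24 h of IL-1β at 10 ng/ml. All groups therefore share the transfection, the line and its immortalisation history, and the cells are 1 cell line rather than primary cartilage. The sources used here do not say whether replicates were separate cultures, so p-values measure the spread between these samples, which may be technical.

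The Ift88 transcript itself lay between 5.83 and 10.2 CPM (counts scaled to library size) in the 18 NT libraries and between 1.43 and 3.10 CPM in the 18 IFT88siRNA libraries, without overlap. The fitted level was 22.9% to 36.1% of NT across the 6 times. Libraries held 19337022 to 38304127 counts assigned to genes. The IFT88siRNA libraries were deeper (median 25873754, against 21672803.5 in NT). Summed over markers, fibroblast genes reached 3072 to 6594 TPM (the share of transcripts, scaled by length) and 11 chondrocyte genes 21.1 to 71.8 TPM. Acan, the aggrecan gene, was at 0.008 to 0.206 TPM, Col2a1 at 1.43 to 9.05 TPM and Sox9 at 5.98 to 34.5 TPM. Comp (4.18 to 22.0 TPM), Hapln1 (2.39 to 11.5 TPM) and Col11a2 (1.17 to 11.7 TPM) were also detected, and 4 of the 11 never reached 1 TPM. The fibroblast sum came mostly from Vim, S100a4 and collagen genes, while Lum was at 0.353 to 4.03 TPM. Acan, a defining marker of cartilage, was at or near 0 in every library. Sums over leukocyte, endothelial and epithelial markers were 4.60 to 13.1, 0.616 to 2.92 and 0.469 to 7.77 TPM.

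BMP ligands bind type I and type II serine/threonine kinase receptors, which phosphorylate SMAD1, SMAD5 and SMAD9, whereas activins signal through SMAD2 and SMAD3. Both sets join SMAD4 and move to the nucleus. The ID genes are classical direct targets of BMP signalling. They encode helix-loop-helix proteins without a DNA-binding domain, which bind E proteins and keep them from DNA. Smad6 and Smad7 are also induced by the pathway, and their products act back on receptors and SMADs as feedback inhibitors. Gremlin 1 binds BMP ligands outside the cell. In cartilage and synovium this network is known for its part in skeletal patterning, chondrocyte differentiation and the turnover of matrix.

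RefSeq promoter windows were matched for 7 of the 10 genes. There was no entry for Id1, Smad7 or Bmp2. The 3 windows below are shown because Id3, Smad6 and Inhba are an ID gene, an inhibitory SMAD and an activin subunit gene that each had their highest mean 2 h after IL-1β. They are 5′ to 3′ in the sense of the gene, from 230 bases before the annotated start to 20 bases after it (RefSeq, GRCm38.p6: Id3 chr4:136143592-136143841, plus strand, Smad6 chr9:64022040-64022289, minus strand, Inhba chr13:16011621-16011870, plus strand). The Id3 window lies wholly inside the gene span given above (chr4:136143497-136145755). The RefSeq start used for Id3 is thus downstream of the start of that span. Capitals mark GGGCGG on either strand (the GC box core), TATAA and, in Smad6, the palindrome GTCTAGAC, which holds the core SMAD-binding letters.
Id3: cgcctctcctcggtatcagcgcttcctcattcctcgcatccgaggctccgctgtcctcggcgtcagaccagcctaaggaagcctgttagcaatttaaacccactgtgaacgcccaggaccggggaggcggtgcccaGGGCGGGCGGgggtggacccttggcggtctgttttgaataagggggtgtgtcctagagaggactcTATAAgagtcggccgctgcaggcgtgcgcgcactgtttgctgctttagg
Smad6: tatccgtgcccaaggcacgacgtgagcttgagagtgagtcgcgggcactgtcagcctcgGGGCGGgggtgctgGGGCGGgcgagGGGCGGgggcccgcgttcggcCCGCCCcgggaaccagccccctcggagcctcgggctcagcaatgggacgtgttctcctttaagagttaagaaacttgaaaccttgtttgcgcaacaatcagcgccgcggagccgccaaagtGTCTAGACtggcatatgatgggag
Inhba: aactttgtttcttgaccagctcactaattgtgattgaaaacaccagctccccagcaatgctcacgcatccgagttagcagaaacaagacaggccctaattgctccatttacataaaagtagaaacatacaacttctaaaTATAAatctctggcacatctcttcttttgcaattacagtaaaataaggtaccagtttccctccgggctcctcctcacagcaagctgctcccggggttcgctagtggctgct

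The letters searched were chosen after these sequences had been seen, and a match is a description of the letters only. Windows of 300 bases (250 before the start to 50 after it) were read on both strands. GTCTAGAC was present in Smad6 alone of the 7 genes, beginning 4 bases before the start, and in 0.213% of 32851 mouse promoter windows. GGGCGG, present in 35.7% of windows, was found in every one of the 7 except Inhba, 5 times in Id4, 4 times in Smad6, 3 times in Grem1, 2 times in Id3 and once in Id2 and in Bmp4. TATAA, present in 24.9% of windows, lay 29 bases before the start in Id3 and 91 bases before it in Inhba. GGCGCC, a GC-rich palindrome present in 11.9% of windows, occurred once in each of Id2, Id4 and Grem1. CCAAT, present in 37.4% of windows, occurred 3 times in Id2, 2 times in Id4 and once in each of Smad6 and Grem1. The AP-1 letters TGANTCA (7.81% of windows), the CRE palindrome TGACGTCA (1.79%) and the exact NF-κB letters GGACTTTCC (0.344%) were in none of the 7 windows. Other forms of an NF-κB site were not searched, so the absence of this rare string does not show that such sites are missing.

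Levels of different genes are compared in TPM, which is scaled by transcript length. At 0 h in NT, Id3 stood highest at 403 ± 16.6 TPM (mean ± SD, n = 3 here and throughout), followed by Id1 at 173 ± 11.8, Id2 at 150.0 ± 6.92 and Bmp4 at 131 ± 8.60 TPM. Inhba, which encodes the βA subunit that forms activin A, was at 65.7 ± 4.04 TPM. Smad6 (30.7 ± 0.982 TPM), Smad7 (16.9 ± 0.929 TPM) and Grem1 (11.5 to 12.4 TPM) were lower, and Id4 (0.605 ± 0.0379 TPM) and Bmp2 (0.187 ± 0.103 TPM) were under 1 TPM. The line thus carried 3 ID genes and 1 BMP ligand gene at high level before IL-1β, with the fourth ID gene and Bmp2 close to 0. The order was the same in IFT88siRNA, and in neither siRNA group did neighbours in it overlap. However, Id2 and Bmp4 in NT nearly met (lowest Id2 library 142, highest Bmp4 library 141 TPM). So did Id1 and Id2 (166.7 and 165.5 TPM) and Id2 and Bmp4 (159.6 and 158.0 TPM) in IFT88siRNA. Bmp2 rested on 0 to 35 counts per library and Id4 on 5 to 37, and the other 8 genes on at least 511.

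**Figure D1:**
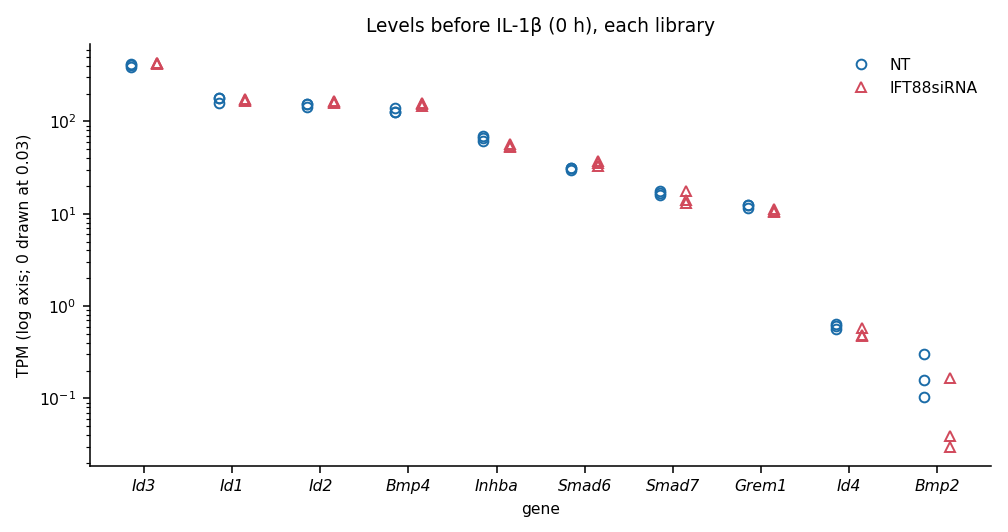
TPM of the 10 genes at 0 h on a log axis, with 1 point per library of each siRNA group (values of 0 are drawn at 0.03). Id3 stood highest, with a mean of 403 TPM in NT, and Id4 and Bmp2 lay below 1 TPM in both groups.

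All following values per library are CPM with TMM-scaled library sizes, and changes are log2 ratios of CPM with their standard error from edgeR's quasi-likelihood test. A gene is said to have risen, fallen or changed only where the Benjamini-Hochberg adjusted p was under 0.05 and the fold above 1.5 (log2 0.58), and to have passed the adjustment where only the p condition is meant. The members were chosen with earlier results of these data known, so shares of all genes set beside them describe and do not test the set. In NT, 10 of 10 genes changed at some time after IL-1β, against 50% of the 16048 genes tested. For 8 of them the largest change was upward and for Id2 and Id4 downward. The median of the largest changes was 1.39 on the log2 scale against -0.21 over all genes tested. On TPM with limma, where Bmp2 and Id4 did not pass the filter, 7 of 10 changed in NT, the other exception being Bmp4. In IFT88siRNA 9 of 10 changed, Bmp4 being the exception, against 48.2% of 16129 genes. The median there was 1.27 against -0.19. On TPM 8 of 10 changed there, Bmp4 among them. By the adjusted p alone 10 of 10 passed in both arms, against 88.4% and 86% of all genes. In NT 4 members had risen at 1 h, 6 at 2 h, 6 at 4 h, 3 at 8 h and 2 at 24 h, where 9.22%, 13%, 16.3%, 11.8% and 6.61% of all genes had. The members that had fallen were Id2 and Id4, at 24 h alone, whereas 9.45%, 14.3%, 12.4%, 7.87% and 9.71% of all genes had fallen at these times. In IFT88siRNA the risen members numbered 2, 6, 6, 2 and 2, against 6.82%, 12.4%, 16%, 10.5% and 6.36% of all genes. Id4 had fallen there at 4 h and Id2 and Id4 at 24 h, and the shares of all genes that had fallen were 8.25%, 13.2%, 13.3%, 7.11% and 7.87%.

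**Figure D2:**
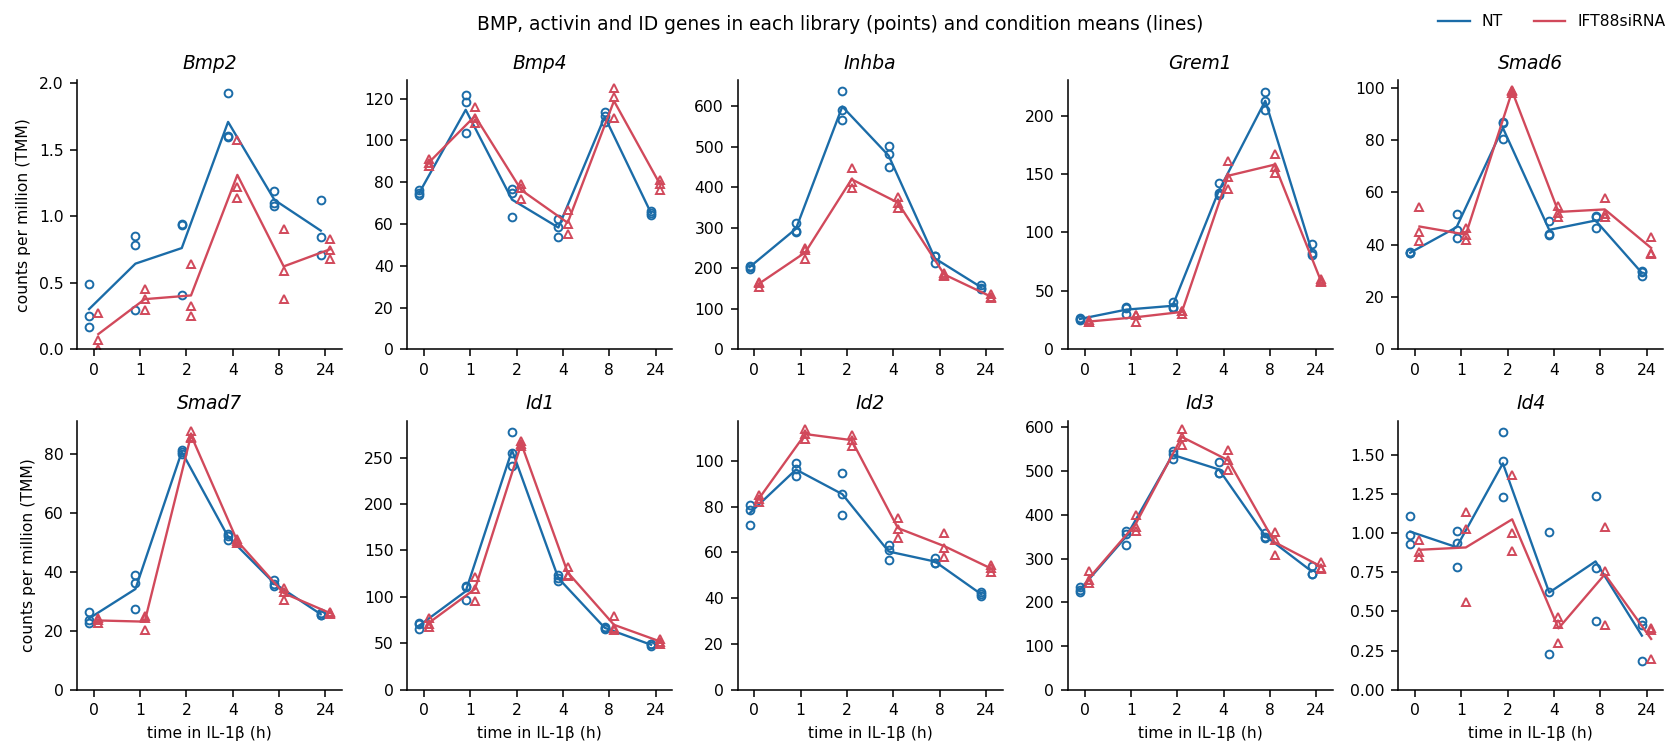
CPM of each gene against hours of IL-1β in 10 panels, with 1 point per library and lines through the means of NT and IFT88siRNA. Id1, Id3, Smad6, Smad7 and Inhba were highest at 2 h, Bmp2 at 4 h and Grem1 in NT at 8 h, and the IFT88siRNA points of Inhba lay below the NT points at every time.

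Among the ligands, Inhba rose sharply and briefly in NT. Its 3 libraries stood at 199, 207 and 204 CPM at 0 h, 293, 289.8 and 312 at 1 h and 592, 568 and 639 at 2 h. They came down to 483, 502 and 450.2 at 4 h, 231, 229.9 and 212 at 8 h, and 151, 158 and 149 at 24 h. The groups from 1 h to 8 h lay wholly above 0 h, and the 24 h group wholly below it. The log2 change was 1.56 ± 0.05 at 2 h (adjusted p = 3e-18) and 1.24 ± 0.05 at 4 h (adjusted p = 1.4e-16). The change of -0.41 ± 0.05 at 24 h passed the adjustment without reaching 1.5-fold. In TPM the 2 h level was 172 ± 9.84. In IFT88siRNA Inhba also rose and came down, from a lower level. It went from 167, 155 and 165 CPM at 0 h to 414, 399 and 447 at 2 h, 376, 362 and 349 at 4 h and 136, 128 and 127 at 24 h. The log2 changes were 1.37 ± 0.05 at 2 h and 1.16 ± 0.05 at 4 h. Because these are bulk samples, fewer cells expressing a gene and less RNA per cell cannot be told apart.

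Bmp4, a BMP ligand gene of mesenchymal tissues, had a course with 2 maxima. NT libraries stood at 74.8, 76.3 and 73.8 CPM at 0 h, 122, 118 and 104 at 1 h and 74.8, 77.0 and 63.2 at 2 h. Later they stood at 62.3, 58.7 and 53.9 at 4 h, 109, 113 and 112 at 8 h and 66.0, 65.2 and 64.3 at 24 h. The 1 h and 8 h groups were above, and the 4 h and 24 h groups below, every 0 h library. The rise at 1 h passed both thresholds (0.61 ± 0.06, adjusted p = 1.3e-08), narrowly for the fold. It was 0.57 without replicate 1 of 1 h and 0.47 on log2(TPM + 1), both under 1.5-fold. The 8 h difference was of nearly the same size (0.57 ± 0.06, adjusted p = 2.4e-08) but under 1.5-fold, as was the difference of -0.36 ± 0.07 at 4 h. Between neighbouring times, Bmp4 fell from 1 to 2 h by 0.68 ± 0.06, rose from 4 to 8 h by 0.93 ± 0.06 and fell from 8 to 24 h by 0.78 ± 0.06 on the log2 scale. Over these steps 5.8% of all genes fell, 7.01% rose and 10.2% fell. In IFT88siRNA the libraries went from 89.3 ± 1.53 CPM at 0 h, where the lowest was 88.0, to 111, 116 and 108 at 1 h, 60.0, 66.5 and 55.3 at 4 h and 121, 125 and 111 at 8 h. No change from 0 h reached 1.5-fold there, the furthest being -0.56 ± 0.06 at 4 h, while the rise from 4 to 8 h did (0.97 ± 0.06, where 7.64% of all genes rose). The Bmp4 locus overlaps Gm15217, which had at most 21 counts in a library. Where exons of both overlap, unstranded counting cannot tell the 2 genes' reads apart.

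Bmp2 was close to the detection limit. Its 3 NT libraries had 6, 4 and 11 counts at 0 h and 34, 35 and 30 at 4 h, which is 0.302 ± 0.167 and 1.71 ± 0.188 CPM. In IFT88siRNA the counts were 8, 2 and 0 at 0 h (a count of 0 allows up to 3) and 34, 23 and 29 at 4 h. The 4 h groups lay above the 0 h groups in both arms, with log2 changes of 2.50 ± 0.37 in NT (adjusted p = 2.1e-06) and 3.45 ± 0.49 in IFT88siRNA (adjusted p = 1.3e-06). The size in IFT88siRNA depended on the 0 h libraries, being 5.04 without the first replicate of 0 h and 2.89 without the third. Without the first the other 4 times gave 3.24 to 4.23. Bmp2 had risen at every time after IL-1β in both arms, by 1.09 ± 0.44 to 2.50 ± 0.37 in NT. The 1 h rise in NT lost its call without replicate 1 or 2 of either time (adjusted p 0.108 to 0.168) and the 2 h rise without replicate 2 of 0 h (0.0566). In IFT88siRNA the 1 h rise lost it without replicate 2 or 3 of 0 h or 1 or 3 of 1 h (0.0651 to 0.133), and the 2 h rise without replicate 2 or 3 of 0 h or 2 of 2 h (0.0652 to 0.129).

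Grem1, the secreted BMP antagonist, had the largest fitted change of the 10 genes in NT and reached it at 8 h. Its libraries stood at 26.1, 26.8 and 25.0 CPM at 0 h, 30.2, 36.3 and 35.5 at 1 h and 35.3, 40.3 and 36.2 at 2 h. They then reached 134, 142 and 132 at 4 h, 213, 205 and 220.4 at 8 h, and 90.3, 82.5 and 80.7 at 24 h. Every group after IL-1β lay above 0 h, and from 4 h on by a wide margin. The log2 change was 2.40 ± 0.06 at 4 h, 3.04 ± 0.06 at 8 h (adjusted p = 5.3e-22) and 1.70 ± 0.06 at 24 h. The 8 h level exceeded that at 4 h by 0.64 ± 0.06 on the log2 scale. In length-scaled units Grem1 reached 93.6 ± 2.72 TPM at 8 h. In IFT88siRNA the libraries stood at 23.7, 23.0 and 24.7 CPM at 0 h, 161, 147 and 137 at 4 h, 167, 156 and 151 at 8 h, and 60.1, 58.5 and 57.2 at 24 h. There the rise was nearly complete at 4 h (2.64 ± 0.07), the 4 h and 8 h groups overlapped, and 8 h was at 2.73 ± 0.07.

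The inhibitory SMADs peaked at 2 h. Smad7, whose product blocks type I receptors, went in NT from 23.6, 26.3 and 22.7 CPM at 0 h to 36.2, 27.5 and 38.7 at 1 h and 80.5, 80.0 and 81.4 at 2 h. It then stood at 50.7, 52.8 and 52.1 at 4 h, 37.1, 35.2 and 35.7 at 8 h and 25.3, 26.0 and 25.4 at 24 h. All libraries from 1 to 8 h were above those at 0 h, and at 24 h the groups overlapped. Its log2 change was 1.73 ± 0.08 at 2 h (adjusted p = 1.6e-15) and 1.11 ± 0.08 at 4 h. In IFT88siRNA, 24.4, 23.5 and 22.5 CPM at 0 h were followed by 24.9, 20.1 and 24.3 at 1 h, 85.8, 85.1 and 87.7 at 2 h and 51.0, 49.8 and 50.3 at 4 h. There the 1 h group overlapped 0 h (-0.03 ± 0.07, adjusted p = 0.76) and the step from 1 to 2 h was 1.90 ± 0.06, against 1.24 ± 0.08 in NT (7.25% and 6.08% of all genes rose over this step).

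Smad6, whose product acts mainly on the BMP branch, rose at 2 h alone. The NT libraries stood at 36.7, 37.1 and 36.9 CPM at 0 h, 51.7, 45.6 and 42.6 at 1 h and 86.6, 86.9 and 80.2 at 2 h. They then stood at 44.2, 43.5 and 49.2 at 4 h, 50.6, 46.2 and 50.9 at 8 h and 29.7, 29.9 and 27.9 at 24 h. The 2 h group was the highest without overlap (1.19 ± 0.06, adjusted p = 2.1e-14), and the 24 h group was below 0 h by less than 1.5-fold (-0.34 ± 0.06). The difference at 4 h (0.31 ± 0.06, adjusted p = 0.00016) depended on the scale, being -0.010 in TPM, where the median gene was at -0.22. In IFT88siRNA the course was 41.3, 54.5 and 44.9 CPM at 0 h, 41.7, 46.2 and 43.6 at 1 h, 98.0, 98.6 and 99.2 at 2 h and 36.6, 36.8 and 42.8 at 24 h, with 1.07 ± 0.08 at 2 h.

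Of the ID genes, Id1 and Id3 rose and Id2 and Id4 fell. Id1 went in NT from 65.0, 70.9 and 71.9 CPM at 0 h to 111, 96.6 and 110.2 at 1 h and 255, 278 and 240.5 at 2 h. It returned to 121, 117 and 123 at 4 h, 67.4, 67.0 and 65.7 at 8 h and 49.7, 46.8 and 48.9 at 24 h. It was above 0 h from 1 to 4 h without overlap, overlapped 0 h at 8 h and was below it at 24 h. The log2 changes were 0.61 ± 0.06, 1.89 ± 0.06 (adjusted p = 3.4e-19) and 0.80 ± 0.06 at 1, 2 and 4 h, and -0.51 ± 0.06 at 24 h, short of 1.5-fold. The 1 h and 4 h rises were under 1.5-fold on log2(TPM + 1), at 0.39 and 0.53, and the 1 h rise also without replicate 1 of 0 h or replicate 1 or 3 of 1 h (0.57 to 0.58). The IFT88siRNA libraries followed closely, with 67.5, 77.1 and 71.0 CPM at 0 h, 265, 262 and 267 at 2 h and 51.4, 49.7 and 54.7 at 24 h. Their 1 h rise (0.59) was under 1.5-fold without replicate 1 or 3 of 0 h, without replicate 3 of 1 h and on TPM. In length-scaled units Id1 in NT reached 530.2 ± 26.2 TPM at 2 h.

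Id3, the most abundant of the 10, had a broader rise. NT libraries stood at 223, 235 and 229 CPM at 0 h, 363, 332 and 357 at 1 h and 539.6, 546 and 527 at 2 h. They then stood at 496, 496 and 520.2 at 4 h, 359, 348 and 349 at 8 h and 282, 266 and 265 at 24 h. Every library after IL-1β was above every 0 h library. The changes of 0.61 ± 0.04, 1.23 ± 0.04 (adjusted p = 4e-18), 1.15 ± 0.04 and 0.62 ± 0.04 at 1, 2, 4 and 8 h passed both thresholds and that of 0.24 ± 0.04 at 24 h did not reach 1.5-fold. On log2(TPM + 1) the 1 h and 8 h changes were 0.40 and 0.47, under 1.5-fold. In IFT88siRNA the libraries stood at 244, 272 and 252 CPM at 0 h, 579, 560.0 and 597 at 2 h, 525, 548 and 502 at 4 h and 361, 344 and 308 at 8 h. The rise passed both thresholds at 2 h (1.18) and 4 h (1.04). At 2 h Id3 in NT reached 769.7 ± 11.9 TPM.

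Id2 differed from Id1 and Id3 in staying under 1.5-fold upward and falling past both thresholds at 24 h. It was first above 0 h, with a 1 h difference in NT of 0.32 (adjusted p = 8.3e-05). In NT its libraries went from 72.0, 78.8 and 80.8 CPM at 0 h to 99.0, 93.2 and 96.5 at 1 h and 85.4, 94.7 and 76.4 at 2 h. They went on to 63.4, 61.2 and 56.7 at 4 h, 57.5, 55.4 and 55.2 at 8 h and 40.9, 42.6 and 41.7 at 24 h. The groups from 4 h on were below 0 h without overlap, and the fall at 24 h passed both thresholds (-0.89 ± 0.06, adjusted p = 1.1e-11). The small difference at 2 h (0.14 ± 0.06, adjusted p = 0.041) was -0.082 in TPM and lost its call without replicate 1 of 0 h or replicate 1 or 2 of 2 h (adjusted p 0.0573 to 0.316). In IFT88siRNA the libraries stood at 84.9, 82.1 and 83.6 CPM at 0 h, 114, 109.6 and 112 at 1 h, 111, 109 and 107 at 2 h and 53.3, 54.6 and 51.4 at 24 h, with -0.65 ± 0.05 at 24 h. There the differences of 0.42 ± 0.05 at 1 h and 0.38 ± 0.05 at 2 h passed the adjustment without reaching 1.5-fold.

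Id4 was at the lowest level of the ID genes, 1.01 ± 0.0911 CPM in NT at 0 h and 0.346 ± 0.139 CPM at 24 h, and 0.893 ± 0.0550 and 0.325 ± 0.113 CPM in IFT88siRNA. It fell at 24 h in both arms (-1.52 ± 0.39, adjusted p = 0.0027 in NT, and -1.44 ± 0.35 in IFT88siRNA). At 4 h the fall passed both thresholds in IFT88siRNA (-1.17 ± 0.37, adjusted p = 0.0082), while NT gave -0.72 ± 0.38 (adjusted p = 0.1), and the difference between these responses was -0.43 ± 0.56 (adjusted p = 0.955 over the 5 times). The Id4 locus overlaps A330033J07Rik and Gm49291, each with at most 2 counts in a library.

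**Figure D3:**
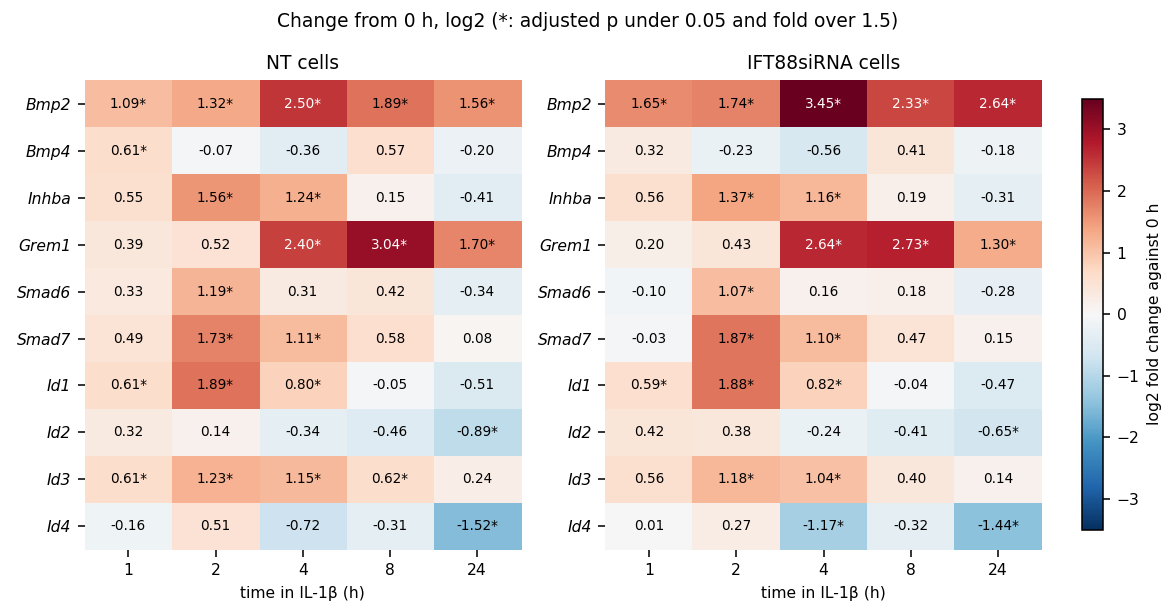
Heat map of the log2 change from 0 h for the 10 genes (rows) at the 5 times of IL-1β in NT and in IFT88siRNA, with an asterisk where the adjusted p was under 0.05 and the fold above 1.5. The strongest colours were those of Grem1 at 8 h (3.04 in NT) and Bmp2 at 4 h (3.45 in IFT88siRNA, on 8, 2 and 0 counts at 0 h), and negative values with an asterisk were those of Id2 and Id4.

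Over the 12 condition means, the courses of Id1, Id3, Smad6, Smad7 and Inhba resembled each other, with Pearson correlations of 0.71 to 0.91 between pairs of log2 CPM (0.906 for Id1 and Inhba, 0.712 for Smad6 and Inhba). Bmp2 and Grem1 had 0.787, and Id2 and Id4 0.750. The 12 points share the time course and the cell line, so these values describe a shared course and carry no test. Among 16710 genes, the 3 whose means followed each member most closely were Vasn, Tjap1 and Picalm for Id1 (0.993 for Vasn), Arf4, AI837181 and A730020M07Rik for Id3 (0.986 for Arf4), and Cped1, Nedd9 and Tmem44 for Id2 (0.982 for Cped1). They were Osbp, Dmrta1 and Plce1 for Id4 (0.939 for Osbp), Sox9, Morf4l2 and Nuak1 for Smad6 (0.958 for Sox9), and Alpk1, Klf5 and Usp54 for Smad7 (0.989 for Alpk1). For the ligands and the antagonist they were Csf3, Prkch and Slc2a6 for Bmp2 (0.951 for Csf3), Slc1a3, Gm5112 and Ccdc171 for Bmp4 (0.932 for Slc1a3), Mfsd4a, Elk4 and Foxn1 for Inhba (0.986 for Mfsd4a), and Slc6a17, Procr and Htra2 for Grem1 (0.988 for Slc6a17).

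The siRNA comparison asks how the level at each time differed between IFT88siRNA and NT. No member differed past both thresholds at any single time in edgeR's test, where 2.23%, 2.66%, 0.496%, 0.432%, 0.692% and 1.15% of all genes did from 0 h to 24 h. DESeq2 likewise called 0 members at each time. At an unadjusted p under 0.05 in edgeR's test, 6 of 9 members tested passed at 0 h, 5 of 10 at 1 h, 5 of 10 at 2 h, 3 of 9 at 4 h, 5 of 10 at 8 h and 5 of 10 at 24 h, against 32.1%, 32.4%, 17.2%, 17.9%, 21.1% and 22.2% of all genes. By the adjusted p alone, 4 members passed at 0 h, 4 at 1 h, 3 at 2 h, 2 at 4 h, 2 at 8 h and 5 at 24 h, against 19.5%, 19%, 2.76%, 3.85%, 4.25% and 8.66% of all genes. Higher in IFT88siRNA among these were 3, 1, 2, 1, 0 and 3 members, against 10.1%, 8.75%, 0.835%, 1.47%, 1.66% and 3.64% of all genes. Lower were 1, 3, 1, 1, 2 and 2, against 9.43%, 10.2%, 1.93%, 2.38%, 2.58% and 5.02%. The 3 libraries of IFT88siRNA lay above the 3 of NT for 16.7%, 17.2%, 10.2%, 10.7%, 13% and 12.4% of all genes at the 6 times. They lay below them for 16.8%, 16.7%, 10.6%, 10.1%, 10.7% and 12.9%. In 1 model over all 36 libraries with a term for siRNA at each time, 8 of 10 passed the adjustment for any difference, against 31.8% of 16710 genes. The exceptions were Id1 (adjusted p = 0.68) and Id4 (adjusted p = 0.75). With the 1.5-fold condition, Bmp2 alone remained (5.19% of genes), with an adjusted p of 0.037 over the 6 times. Its largest difference was -1.33 ± 0.64 at 0 h, where the adjusted p for that time alone in the same model was 0.18. The size moved to -2.91 without replicate 1 of IFT88siRNA at 0 h, and to -0.77 and -0.82 without replicate 3 of IFT88siRNA or of NT at 0 h. The adjusted p over the 6 times went to between 0.0504 and 0.0745 without any of 15 libraries. In IFT88siRNA these were replicate 2 of 0 and 8 h, 1 and 2 of 1 h and 1 and 3 of 2 h. In NT they were replicate 3 of 0 h, 1 and 2 of 1 h, 1 and 3 of 2 h, 1 of 4 h and all 3 of 8 h. IFT88siRNA libraries were deeper, and the part of depth in these differences was not tested beyond the library size scaling.

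Inhba, the activin subunit gene, was lower in IFT88siRNA than in NT at every time. It was lower in IFT88siRNA at 0 h, with a mean of 162 against 203 CPM (79.7% of NT in the fit), at 2 h, with 420.0 against 599.6 CPM (69.9%), and at 24 h, with 131 against 153 CPM (85.0%). All 3 IFT88siRNA libraries lay below all 3 NT libraries at each of the 6 times, as they did for 0.832% of 16710 genes. The log2 differences were -0.33 ± 0.04 (adjusted p = 7.5e-06), -0.32 ± 0.05 (0.00018), -0.52 ± 0.06 (0.00092), -0.41 ± 0.05 (0.0002), -0.30 ± 0.05 (0.013) and -0.23 ± 0.05 (0.0054) from 0 h to 24 h, and 0.361% of the 13849 genes tested at every time were lower with an adjusted p under 0.05 at all 6. Its response to IL-1β, measured from each arm's own 0 h, did not pass the adjustment for a difference between the arms (adjusted p = 0.098). The 8 h difference lost its call without replicate 2 of IFT88siRNA or replicate 1 or 2 of NT (adjusted p 0.0607 to 0.0806) and the 24 h difference without replicate 2 of IFT88siRNA (0.0562). On log2(TPM + 1) with limma the adjusted p was 0.0852, 0.0796 and 0.172 at 4, 8 and 24 h. Without the TPM filter it was over 0.05 at all 6 times (0.0907, 0.0818 and 0.0711 at 0, 1 and 2 h).

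Grem1 was lower in IFT88siRNA at 8 h, 158 ± 8.48 against 213 ± 7.79 CPM (-0.45 ± 0.05, adjusted p = 0.0011), and at 24 h, 58.6 ± 1.47 against 84.5 ± 5.09 CPM (-0.53 ± 0.05, adjusted p = 9.2e-06, 69.1% of NT). At both times the 3 IFT88siRNA libraries were below all NT libraries. At 4 h the groups overlapped, at 149 ± 11.9 against 136 ± 5.54 CPM (0.12, adjusted p = 0.29). The 1 h difference (-0.32 ± 0.08, adjusted p = 0.014) lost its call without replicate 3 of IFT88siRNA or replicate 2 or 3 of NT (0.0540 to 0.0661). The response itself differed between the arms (adjusted p = 7.3e-05 over the 5 times), with 0.25 ± 0.10 at 4 h, -0.30 ± 0.10 at 8 h and -0.40 ± 0.10 at 24 h for the change in IFT88siRNA minus that in NT, each under 1.5-fold. Of all 16710 genes 5.53% passed the adjustment in this test, and 1.2% also the 1.5-fold condition. Of the 10 members 3 passed by p alone and 0 with the fold condition, as with DESeq2, and 7 had an unadjusted p under 0.05 at some time, against 30.7% of all genes.

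The other members that passed this test of the response were the inhibitory SMADs. Smad7 was lower in IFT88siRNA at 1 h, 23.1 ± 2.57 against 34.1 ± 5.92 CPM, with all 3 libraries below those of NT (-0.57 ± 0.10, adjusted p = 0.0013). At the other times the difference was between -0.16 and 0.09. The difference in response at 1 h was -0.52 ± 0.11 (adjusted p = 0.00075 over the 5 times). Both sizes lay near 1.5-fold and passed it without single libraries. The level difference was -0.71 (adjusted p = 2.5e-05) without replicate 2 of NT at 1 h, which stood at 27.5 CPM against 36.2 and 38.7 in the others, and -0.62 and -0.60 without replicate 1 or 3 of IFT88siRNA at 1 h. The response difference was -0.66 (adjusted p = 1.7e-06) without the same NT library and -0.59 without replicate 2 of NT at 0 h. Smad6 was higher in IFT88siRNA at 0 h, 46.9 ± 6.83 against 36.9 ± 0.215 CPM (0.35 ± 0.07, adjusted p = 0.0015), and at 24 h, 38.7 ± 3.53 against 29.2 ± 1.12 CPM (0.40 ± 0.07, adjusted p = 0.0011), without overlap. At 1 h it was at 43.8 ± 2.31 against 46.6 ± 4.64 CPM (-0.09, adjusted p = 0.34), so that the response at 1 h differed by -0.43 ± 0.11 (adjusted p = 0.025 over the 5 times, and 0.0504 to 0.106 without replicate 1 or 3 of IFT88siRNA at 1 h, replicate 3 of it at 24 h or replicate 1 of NT at 1 h). The 2 h difference in level (0.22 ± 0.05, adjusted p = 0.039) lost its call without each of its libraries but replicate 2 of NT (0.0628 to 0.171).

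Among the ID genes, Id2 was higher in IFT88siRNA at each time, with no overlap between the arms at any of the 6, as for 0.652% of all genes. It did not pass the adjustment at 0 h (0.11 ± 0.05, adjusted p = 0.089) or at 8 h (0.15 ± 0.06, adjusted p = 0.197). At 24 h it was at 53.1 ± 1.63 against 41.7 ± 0.828 CPM (0.34 ± 0.05, adjusted p = 0.00034) and at 1 h at 112 ± 2.12 against 96.2 ± 2.88 CPM (0.21 ± 0.04, adjusted p = 0.002). The differences at 2 h (0.35 ± 0.07, adjusted p = 0.023) and 4 h (0.22 ± 0.06, adjusted p = 0.037) lost their calls, the first without replicate 1 or 2 of IFT88siRNA or 1 of NT (0.101 to 0.113), the second without each library but replicate 3 of IFT88siRNA (0.0555 to 0.187). Id1 differed from NT by 0.03 to 0.09 with adjusted p from 0.31 to 0.82. Id3 differed by -0.08 to 0.16 and passed the adjustment at 0 h only (256 ± 14.4 against 229 ± 6.05 CPM, adjusted p = 0.014, and 0.0516 to 0.0702 without replicate 1 or 3 of NT). Bmp4 was higher in IFT88siRNA at 0 h, 89.3 ± 1.53 against 75.0 ± 1.24 CPM (0.25 ± 0.04, adjusted p = 0.00017), and at 24 h, 78.7 ± 2.51 against 65.2 ± 0.862 CPM (0.27 ± 0.04, adjusted p = 0.0014), and from 1 h to 8 h differed by -0.04 to 0.09, without passing. On log2(TPM + 1) with limma the Bmp4 differences had adjusted p of 0.0737 and 0.102. Those of Smad6 at 0 and 24 h had 0.0953 and 0.0554, and that of Smad7 at 1 h 0.0804 (0.0527 for its response). The adjusted p also went over 0.05 on TPM for Id2 at 2 and 4 h, Id3 at 0 h, Smad6 at 2 h and Grem1 at 1 h. Over all alternatives the highest values for these were 0.28, 0.29, 0.41, 0.17 and 0.36.

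**Figure D4:**
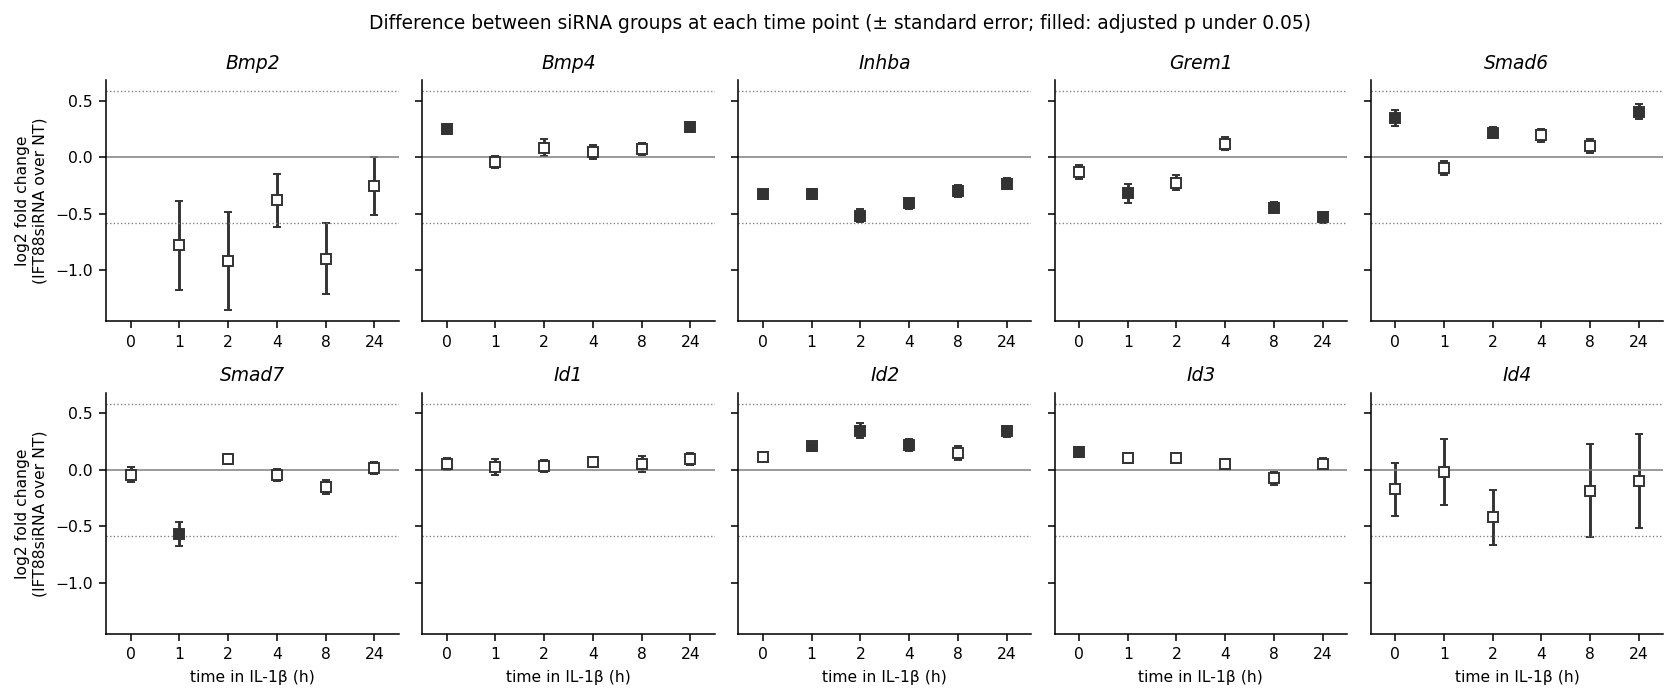
Log2 difference in CPM of IFT88siRNA over NT (vertical axis) against hours of IL-1β for each gene, with bars of 1 standard error from the fit, filled points for an adjusted p under 0.05 and dotted lines at 1.5-fold. Inhba lay below 0 at all 6 times, from -0.23 at 24 h to -0.52 at 2 h, and Id2 above 0 at all 6.

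The rest of the pathway was read from lists of 80 other ligands, receptors, SMADs, inhibitors, targets and E proteins, of which 64 passed the filter on low counts in NT. Of these, 43 changed after IL-1β in NT (67.2%, against 50% of all genes), 26 with the largest change upward and 17 downward, with a median largest change of 0.33 against -0.21. In IFT88siRNA 45 of 64 changed (70.3%, against 48.2% of all genes), 26 upward and 19 downward. These lists were also chosen with earlier results of these data known, so the shares do not test them. Ligand genes changed in 12 of 13 tested, 6 each way. Tgfb2 (2.50 ± 0.06 at 2 h) and Tgfb1 (1.36 ± 0.06 at 4 h), both TGF-β ligand genes, rose, as did the growth and differentiation factor Gdf5 (3.25 ± 0.24 at 4 h), whereas Gdf7 (-1.85 ± 0.16 at 4 h) and the activin and inhibin βB subunit gene Inhbb (-1.14 ± 0.13 at 1 h) fell. Bmp10 had the largest change (4.26 ± 0.29 at 4 h), on 0 to 81 counts per library, and Gdf5 rested on 9 to 125.

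Receptor genes changed in 7 of 14, 5 upward and 2 downward. For this list and those below, the share of all genes that changed in NT was 50%. The activin type I receptor gene Acvr1b (2.07 ± 0.07 at 4 h), the co-receptor betaglycan Tgfbr3 (1.94 ± 0.05 at 24 h) and the BMP type I receptor gene Acvr1 (0.99 ± 0.05 at 4 h) rose, and the co-receptor endoglin Eng (-1.23 ± 0.10 at 4 h) fell. Of the 6 signal-transducing SMAD genes, Smad1 rose (1.07 ± 0.04 at 2 h) and Smad9 fell (-1.10 ± 0.06 at 24 h). Secreted antagonists changed in 7 of 11, 5 upward and 2 downward. Noggin, Nog (2.07 ± 0.13 at 2 h), Bmper (1.93 ± 0.05 at 8 h) and follistatin-like Fstl1 (1.65 ± 0.04 at 8 h) rose and Chrdl1 (-1.41 ± 0.07 at 24 h) fell. Membrane and intracellular inhibitors changed in 7 of 10, 6 upward, among them the SKI-like repressor gene Skil (2.56 ± 0.06 at 2 h), Tgif1 (2.25 ± 0.05 at 1 h), Pmepa1 (2.17 ± 0.06 at 4 h) and the ubiquitin ligase gene Smurf1 (1.02 ± 0.04 at 2 h).

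Other known BMP targets changed in 7 of 7 tested, 2 upward and 5 downward with a median of -0.72. The homeobox genes Msx2 (1.91 ± 0.12 at 2 h) and Dlx3 (3.21 ± 0.42 at 2 h, on 0 to 39 counts per library) rose. Hey1 (-1.48 ± 0.15 at 24 h) and Gata3 (-2.06 ± 0.26 at 24 h) fell. Of the members, Id1, Id3, Smad6 and Smad7 rose, and Id2 and Id4 fell. Of the E protein genes, whose products ID proteins bind, 1 of 3 changed (Tcf4, 0.72 ± 0.04 at 4 h). Between the siRNA arms 6 of 65 listed genes differed past both thresholds in the model over all times, against 5.19% of all genes. Among them, Gdf5 and Msx1 were higher in IFT88siRNA, by 1.02 at 0 h and 0.72 at 1 h, and Gdf15 (-0.68 at 2 h), Hey1 (-0.88 at 1 h) and Amhr2 (-0.61 at 24 h) were lower. Counts per library were low for Gdf5 (9 to 125), Msx1 (10 to 108), Hey1 (22 to 123) and Amhr2 (12 to 51). Gata3, named above, had 8 to 49. The response to IL-1β differed past both thresholds for 3 of 65, against 1.2% of all genes.

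**Figure D5:**
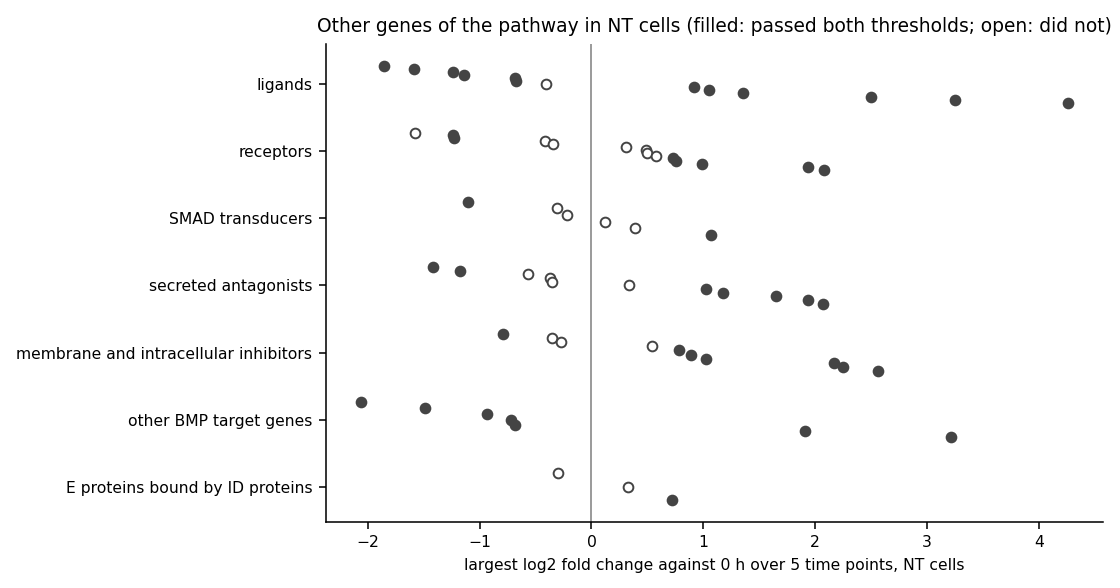
Largest log2 change from 0 h in NT of each other pathway gene, grouped by list along 1 axis, with filled points for genes past both thresholds. Membrane and intracellular inhibitors lay mostly above 0 (6 of 7 changed genes), and other BMP targets mostly below it (5 of 7).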

How the data were processed

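Poly(A) RNA-seq libraries from 36 samples were grouped by the siRNA and hours of IL-1β in their labels. The siRNA is given as 50 nM in the labels and 10 nM in the study's methods. The authors aligned reads to GRCm38 (Ensembl annotation) with HISAT2 (2.1.0) and deposited a table of raw counts per gene made with featureCounts (Subread 1.6.3, default and hence unstranded setting). The authors also deposited TPM values from Salmon (0.9.1). Tool versions are from the submitters' processing notes. Libraries ran over several lanes, and no map of libraries to lanes was used here.

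Counts were fitted with edgeR (4.0.16) in R (4.3.3): filterByExpr, TMM scaling, the quasi-likelihood test and Benjamini-Hochberg adjustment over all genes tested. Standard errors are the log2 ratio divided by the square root of F. NT and IFT88siRNA time courses were fitted over their own 18 libraries, siRNA effects and differences in response over all 36, and the siRNA at single times over 6. The filter left out Bmp2 at 0 h and Id4 at 4 h in these fits of 6. TPM was tested with limma (3.58.1) on log2(TPM + 1) among genes at 1 TPM or more in at least 3 libraries. CPM values use TMM-scaled library sizes. The scripts were tested on simulated data with known changes.

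The members and gene lists were chosen with earlier results of these data known. Named genes were all members, the listed pathway genes with the largest changes past both thresholds, and the 3 nearest genes by correlation. Alternatives covered normalization (DESeq2 1.42.0), filters, pseudocounts, TPM, the fold threshold, a replicate block and leaving out each library. Depth of 19337022 to 38304127 counts per library left 8 members with at least 511 counts, and intervals for Bmp2 and Id4 are wide. Gene coordinates are from the GENCODE annotation of GRCm38.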

Additional observations from a re-analysis of the deposited data

Results flagged for a closer look

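The response to IL-1β, measured as the change from 0 h in IFT88siRNA minus that in NT, differed between the siRNA arms by a test of the difference itself (edgeR's quasi-likelihood test of the interaction) for Smad6, Smad7 and Grem1. The largest difference of Smad6 was -0.43 at 1 h (adjusted p = 0.0253 over the 5 times), with replicates at 41.7 to 46.2 CPM in IFT88siRNA and 42.6 to 51.7 CPM in NT at 1 h and a wider 0 h group in IFT88siRNA (41.3 to 54.5 CPM). The largest difference of Smad7 was -0.52 at 1 h (adjusted p = 0.000749), where the 3 IFT88siRNA libraries lay below the 3 NT libraries. The largest difference of Grem1 was -0.40 at 24 h (adjusted p = 7.26e-05), where the 3 IFT88siRNA libraries again lay below those of NT. With all libraries none of these differences reached 1.5-fold, and 5.53% of 16710 genes passed this test by adjusted p alone. The adjusted p of Smad6 went to between 0.0504 and 0.106 without any of 4 libraries. That of Smad7 went as high as 0.103 on TPM.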

How the results depend on the processing

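Of 114 member values followed through the alternatives (2800 values), 2657 kept their direction and an adjusted p under 0.05, 137 went over 0.05 and 6 turned direction. The 6 were Id2 at 2 h in NT (0.14, against -0.082 on all 3 TPM settings) and Smad6 at 4 h in NT (0.31, against -0.010, -0.010 and, with a pseudocount of 0.1, -0.011), with the median gene on TPM at -0.14, -0.22, -0.22, -0.09 and -0.11 from the first to the last time. Under DESeq2, DESeq2 size factors and a filter of at least 1 count every value kept both. Of 44 changes after IL-1β past both the adjusted p and 1.5-fold (1074 values over the alternatives), 1026 stayed past both, 19 of the other 48 being with 1 library left out and the rest on TPM. On TPM 7 to 8 members changed in NT and 8 to 9 in IFT88siRNA. The cause was not tested.

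Without the fold threshold the genes called were 14188 (NT time course, against 8017), 13875 (IFT88siRNA time course, against 7781), 5314 (siRNA, against 868), 924 (response, against 201) and 2979, 2808, 407, 570, 644 and 1318 at the single times from 0 h to 24 h (against 341, 393, 73, 64, 105 and 175), and the members 8 for siRNA, 3 for response and 4, 4, 3, 2, 2 and 5 at single times. By limma on log2(TPM + 1) the genes called were 421 for siRNA and 123, 135, 28, 24, 36 and 61 at the single times, with a pseudocount of 0.1 143, 133, 28, 25, 36 and 65, and without the TPM filter 367 for siRNA, 115 for response and 75, 51, 11, 13, 22 and 34. A filter of at least 1 count gave 345 for response and 137, 100 and 245 at 2, 4 and 8 h, DESeq2 176, 223 and 34 at 0, 1 and 4 h, and 1 model of all 36 libraries 142 and 231 at 2 and 8 h. Leaving out 1 library gave 8052 to 8221 genes and 9 to 10 members for the NT time course, 7795 to 8133 and 9 to 10 for IFT88siRNA, 767 to 1159 and 0 to 2 for siRNA, 170 to 238 and 0 to 1 for response, and 275 to 368, 217 to 457, 22 to 208, 23 to 140, 47 to 583 and 103 to 185 genes at the single times, with 0 to 1 member at 1 h and 0 at the others.

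Same-numbered libraries were not treated as pairs (correlations of deviations -0.13 to 0.22 over 18 pairs, 5 of 18 NT libraries closest to their own number). These values cannot show whether the cultures were paired. With the replicate block 1 member value went over 0.05 (Id2 at 4 h, adjusted p = 0.0581), and the calls were 8032, 7765, 915 and 226, and 320, 458, 115, 57, 136 and 140 at the single times.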
